A study of Homo sapiens with 6 samples.

Results

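The genes described here are 10 enzymes that break down tyrosine, lysine and the branched-chain amino acids. They are HPD, HGD, GSTZ1 and FAH of the tyrosine pathway, AASS and AADAT of the lysine pathway, and BCAT1, BCAT2, BCKDHA and BCKDHB of the branched-chain pathway. They were found by symbol among the 25369 genes of the files, where all 10 are listed. The set was chosen by the strong fall of HPD in the very comparison described below, so the values of these 10 genes are a description. Whether they passed the threshold used for all genes is given only as part of that description, without p-values, and supports nothing.

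The samples are Caki2, a human ccRCC cell line without PBRM1 protein, and their RNA was measured by RNA-Seq. In Caki2+Vector (n = 3) the cells carried an empty lentiviral vector inducible by doxycycline. In Caki2+PBRM1 (n = 3) the same vector held PBRM1, a bromodomain subunit of the PBAF chromatin remodeling complex. Both groups received doxycycline at 2 µg/mL in a medium with added nonessential amino acids and L-glutamine, and each has replicates A, B and C. The comparison asks which genes differ once PBRM1 is expressed again. The line is a single engineered cell line in culture, with PBRM1 driven from an inducible promoter rather than its own, and the sources used here do not say whether replicates came from separate infections. In such bulk samples, fewer cells with a transcript and less of it per cell cannot be told apart.

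Tyrosine is broken down in a chain of cytosolic steps. Its amino group is removed, HPD turns the resulting 4-hydroxyphenylpyruvate into homogentisate, HGD opens the ring of homogentisate, GSTZ1 isomerizes the product and FAH splits it into fumarate and acetoacetate. Lysine enters the mitochondrial saccharopine route through AASS, and AADAT later transfers the amino group of 2-aminoadipate. Leucine, isoleucine and valine share their first steps, a transamination by BCAT1 in the cytosol or BCAT2 in mitochondria and then oxidative decarboxylation by a complex whose E1 subunits are BCKDHA and BCKDHB. Liver and the renal proximal tubule are the classical sites of the tyrosine route.

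HPD had the largest difference of the 10 genes, with a level in Caki2+PBRM1 at 39.7% of that in Caki2+Vector. The remaining tyrosine genes differed far less, HGD being lower at 84.0% and GSTZ1 and FAH within 2% of the Caki2+Vector level. In the branched-chain pathway BCAT2 was lower at 79.1%, BCKDHB was higher at 122% and BCKDHA overlapped between the groups. In the lysine pathway AADAT was higher at 129% without passing the threshold used for all genes. AASS had too few reads to compare.

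HPD lies on chr12:122277433-122301502 of GRCh37, minus strand (ENSG00000158104). RefSeq, on GRCh38.p14, lists promoter windows for 8 of the 10 genes, and HGD and BCAT2 are not among them. The windows of HPD, the gene that carries the contrast, and of BCKDHB, the only one of the 10 genes called higher, are shown as the 250 bases before each start, 5′ to 3′ on the strand of the gene. Capitals mark GGGCGG (a GC box, CCGCCC where it is on the opposite strand) and ACGTG (the core of a hypoxia response element, CACGT on the opposite strand).
HPD, start 1, chr12:121888612-121888861, minus strand: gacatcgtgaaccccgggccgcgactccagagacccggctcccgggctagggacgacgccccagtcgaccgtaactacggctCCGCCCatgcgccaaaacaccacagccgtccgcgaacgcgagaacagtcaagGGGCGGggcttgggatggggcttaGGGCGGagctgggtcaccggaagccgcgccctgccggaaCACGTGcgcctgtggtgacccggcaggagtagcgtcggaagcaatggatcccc
HPD, start 2, chr12:121858860-121859109, minus strand: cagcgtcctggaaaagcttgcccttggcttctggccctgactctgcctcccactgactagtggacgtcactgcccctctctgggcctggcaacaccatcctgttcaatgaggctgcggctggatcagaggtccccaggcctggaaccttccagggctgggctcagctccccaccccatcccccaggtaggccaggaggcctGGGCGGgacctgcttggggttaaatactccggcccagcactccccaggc
BCKDHB, chr6:80106421-80106670, plus strand: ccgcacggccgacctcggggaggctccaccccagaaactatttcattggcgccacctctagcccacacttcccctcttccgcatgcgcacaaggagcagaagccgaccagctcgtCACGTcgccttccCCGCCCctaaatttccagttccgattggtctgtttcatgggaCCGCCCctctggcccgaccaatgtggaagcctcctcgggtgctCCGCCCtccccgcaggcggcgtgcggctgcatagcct

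The starts that RefSeq lists for HPD are 29752 bases apart, farther than the GENCODE gene on GRCh37 is long, so they cannot both lie within the span given above, which was also the source of the exon length. Their windows differ in composition. The first holds 29 CpG dinucleotides at a GC content of 68.8%, with 3 GC boxes and an ACGTG that is read on both strands as the overlapping CACGTG, 52 bases before the start. The second holds 5 CpG at 64.8% GC and 1 GC box, 49 bases before the start. The BCKDHB window holds 21 CpG at 64.8% GC, 3 GC boxes and 1 ACGTG, all of these motifs on the opposite strand. Both strands of 34943 windows of the same length were searched. GGGCGG occurred in 42.55% of them, ACGTG in 18.49%, TATAAA in 10.75% and GTTAAT in 6.24%, and the median window had 11 CpG and 58.0% GC. Neither TATAAA nor GTTAAT occurred in the 3 windows shown. Counts per gene do not tell which start was used, and a match is a description of letters only.

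The values are normalized counts, that is, reads on a gene divided by a size factor of the sample. Between 7312955 and 10835355 reads per sample fell on genes. PBRM1 itself, whose reads include those from the construct, rose by 3.76 on the log2 scale (SE 0.06, adjusted p = 3.33e-29 in limma). It went from 186.5 ± 7.4 to 2544.9 ± 127.1 (SD, n = 3 each). Replicate A of Caki2+Vector stood apart, since the chi-square per degree of freedom against its other replicates was 3.14 and 2.86, where counting error alone gives about 1 and the remaining replicate pairs gave 1.19 to 1.35. A call means an adjusted p under 0.05 across 13303 genes, those reaching a normalized count of 10 in 3 or more samples. Of these genes 16.2% were called higher and 13.0% lower in Caki2+PBRM1, with a median log2 fold change of -0.00. Without overlap between the groups, 22.1% of all 13303 genes were higher and 19.6% lower in Caki2+PBRM1.

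The cells carried the markers of a renal epithelial line, and 7 of 8 such genes passed the filter, with CA9 below it. PAX8, the kidney lineage factor, had a mean of 2072 ± 161 without and of 2094 ± 41 with PBRM1 (SD, n = 3 each). Other markers of this list differed between the groups. By log2 fold change CDH6 (1.12) and VIM (0.18) were called higher in Caki2+PBRM1 and KRT8 (-0.18) and KRT18 (-0.34) lower. PAX8, PAX2 and LHX1 were not called. Only 2 of 10 proximal tubule function markers passed, GGT1 and CUBN, and the organic anion transporters SLC22A6 and SLC22A8 were at 0 in every sample. Of 8 hepatocyte markers 1 passed, SERPINA1, and ALB, APOA1, APOB and TTR were at 0 in every sample. The summed normalized count of the hepatocyte list ranged over the Caki2+Vector samples from 21.6 to 31.2 and over the Caki2+PBRM1 samples from 42.8 to 56.9, and the part of this difference in the results was not tested. None of 4 endothelial, 1 of 5 leukocyte and 2 of 4 fibroblast markers passed.

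Among the 10 genes, 8 were above a normalized count of 10 in every sample and entered the fit, and AASS and BCAT1 did not. In the fit 1 was called higher, 3 lower and 4 neither, with a median log2 fold change of -0.05, and the groups did not overlap for 2 that were higher and 3 that were lower. Over all 13303 tested genes 16.2% were called higher and 13.0% lower, and without overlap 22.1% were higher and 19.6% lower. Because the 10 genes were selected on this comparison, nothing is read from their counts against these shares.

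**Figure D1:**
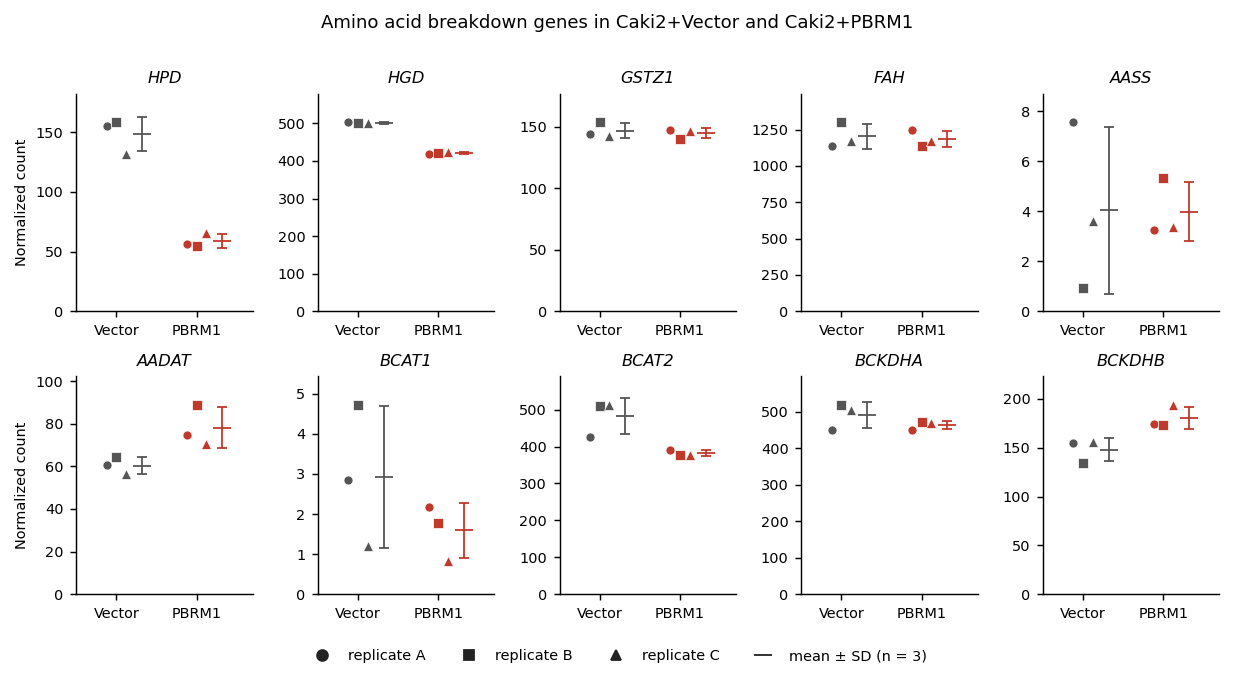
Normalized count (y axis, from 0, a scale of its own in each panel) of the 10 genes in each sample, grey for Caki2+Vector and red for Caki2+PBRM1, with the marker shape giving the replicate and the bars the mean ± SD (n = 3). HPD lies between 131.8 and 158.7 in Caki2+Vector and between 55.1 and 65.5 in Caki2+PBRM1, and AASS and BCAT1 stay under 8 everywhere.

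HPD is the dioxygenase that makes homogentisate and is the target of nitisinone, the drug given in tyrosinemia. Its normalized count was 155.3, 158.7 and 131.8 in replicates A, B and C of Caki2+Vector and 56.3, 55.1 and 65.5 in those of Caki2+PBRM1. The lowest Caki2+Vector sample thus stood well above the highest Caki2+PBRM1 sample. The means were 148.6 ± 14.6 (SD, n = 3) and 59.0 ± 5.7 (SD, n = 3), a log2 fold change of -1.32 (SE 0.13) on the log2(normalized count + 1) scale. That placed HPD at rank 20 of 13303 from the most negative fold change. The values rest on 442 and 192 reads summed over the groups, and within each group the samples varied about as counting error does, with a chi-square per degree of freedom of 1.28 and 0.62. Of the exons annotated for HPD, 112 bases overlap an antisense lncRNA (ENSG00000256811) that is no gene of the files. Whether reads were counted by strand is not given in the sources used here, so reads of that RNA could be included.

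HGD, whose loss causes alkaptonuria, is the next enzyme of the chain and lies on chr3:120347019-120401116 of GRCh37, minus strand (ENSG00000113924). Its samples read 503.6, 500.7 and 499.8 in Caki2+Vector and at 418.1, 421.3 and 424.7 in Caki2+PBRM1. The replicates of each group were closer to each other than counting error alone gives on average, and the groups did not overlap. The means were 501.4 ± 2.0 (SD, n = 3) and 421.4 ± 3.3 (SD, n = 3), and the log2 fold change was -0.25 (SE 0.06), rank 1656 from the most negative.

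GSTZ1 (chr14:77787339-77797940, plus strand, ENSG00000100577) is the maleylacetoacetate isomerase. Its normalized count was 143.9, 154.0 and 142.6 in Caki2+Vector and 147.3, 140.4 and 146.9 in Caki2+PBRM1. The groups overlapped, with a log2 fold change of -0.02 (SE 0.10). FAH (chr15:80444832-80479288, plus strand, ENSG00000103876), the last enzyme of the pathway and the one lost in tyrosinemia type I, was at 1140, 1303 and 1173 in Caki2+Vector and at 1249, 1140 and 1174 in Caki2+PBRM1. Its groups overlapped as well, with a log2 fold change of -0.02 (SE 0.05). The sign of both small differences turned when replicate B of either group was left out, to values between 0.0033 and 0.04.

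Of the lysine genes, AADAT (chr4:170981373-171012850, minus strand, ENSG00000109576) also acts as a kynurenine aminotransferase and so belongs to the tryptophan pathway too. It was at 60.6, 64.2 and 56.3 in Caki2+Vector and at 74.7, 88.9 and 70.5 in Caki2+PBRM1. Every Caki2+PBRM1 sample was above every Caki2+Vector sample, with a log2 fold change of 0.36 (SE 0.14), but AADAT was not called. AASS (chr7:121704637-121784362, minus strand, ENSG00000008311), the bifunctional enzyme that makes and cleaves saccharopine, had 8, 1 and 3 reads in Caki2+Vector and 3, 6 and 4 in Caki2+PBRM1. With 12 reads against 13 in all, a difference was not detectable at this depth.

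The branched-chain aminotransferases were present at very different levels. BCAT1 (chr12:24962958-25102035, minus strand, ENSG00000060982), the cytosolic form, had 3, 5 and 1 reads in Caki2+Vector and 2, 2 and 1 in Caki2+PBRM1, too few to show a difference. BCAT2 (chr19:49298319-49314286, minus strand, ENSG00000105552), the mitochondrial form, was at 427.0, 509.2 and 513.0 in Caki2+Vector and at 391.0, 376.9 and 377.7 in Caki2+PBRM1. The groups of BCAT2 did not overlap, but replicate A of Caki2+Vector, the sample that stood apart over all genes, lay nearest to Caki2+PBRM1. Its means were 483.1 ± 48.6 (SD, n = 3) and 381.9 ± 7.9 (SD, n = 3), a log2 fold change of -0.33 (SE 0.07), and of -0.42 without that replicate. An antisense lncRNA (ENSG00000286024), no gene of the files, shares 239 exon bases with BCAT2.

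Of the E1 subunits of the branched-chain ketoacid dehydrogenase, the alpha subunit overlapped between the groups and the beta subunit did not. BCKDHA (chr19:41903713-41930907, plus strand, ENSG00000248098), the alpha subunit, was at 450.6, 518.7 and 503.4 in Caki2+Vector and at 449.5, 472.0 and 467.5 in Caki2+PBRM1. These samples overlapped, with a log2 fold change of -0.08 (SE 0.07). Reads on 1660 of its exon bases could also come from a readthrough gene on the same strand (ENSG00000255730). BCKDHB (chr6:80816364-81055987, plus strand, ENSG00000083123), the beta subunit, was at 154.3, 134.2 and 155.8 in Caki2+Vector and at 174.4, 173.3 and 193.9 in Caki2+PBRM1. Its groups did not overlap, with a log2 fold change of 0.29 (SE 0.10). It was past the threshold with all samples, but not without Caki2+Vector B (0.22), without Caki2+PBRM1 A (0.31) or without Caki2+PBRM1 C (0.23).

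To compare levels between genes, normalized counts were divided by the length in kb of all annotated exons of each gene on GRCh37. These exons are those of GENCODE, while the reads were counted on a UCSC annotation, so the length need not be that of the exons counted on. In Caki2+Vector, BCKDHA was highest at 218 ± 15.9 per kb (SD, n = 3), followed by HGD at 187 ± 0.75. FAH at 119 ± 8.5 and BCAT2 at 106 ± 10.7 came next and overlapped each other over the samples. HPD at 66.8 ± 6.6 came after these, above BCKDHB at 36.4 ± 3.0, AADAT at 20.3 ± 1.3 and GSTZ1 at 17.6 ± 0.74. AASS at 0.373 and BCAT1 at 0.256 were lowest and overlapped each other. In Caki2+PBRM1, HPD at 26.5 ± 2.5 fell behind BCKDHB at 44.3 ± 2.8 and overlapped AADAT at 26.3 ± 3.2. With the length of the MANE Select transcript in place of all exons, FAH moved to the top at 828 ± 59.1 and GSTZ1, at 124 ± 5.3, moved above HPD, at 105 ± 10.3, in Caki2+Vector. The annotated exons of FAH span 10161 bases and its MANE Select transcript 1456, so its place depends on that choice. BCKDHA, HGD, FAH and BCAT2 were the top 4 and AASS and BCAT1 the lowest in both groups by either length.

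**Figure D2:**
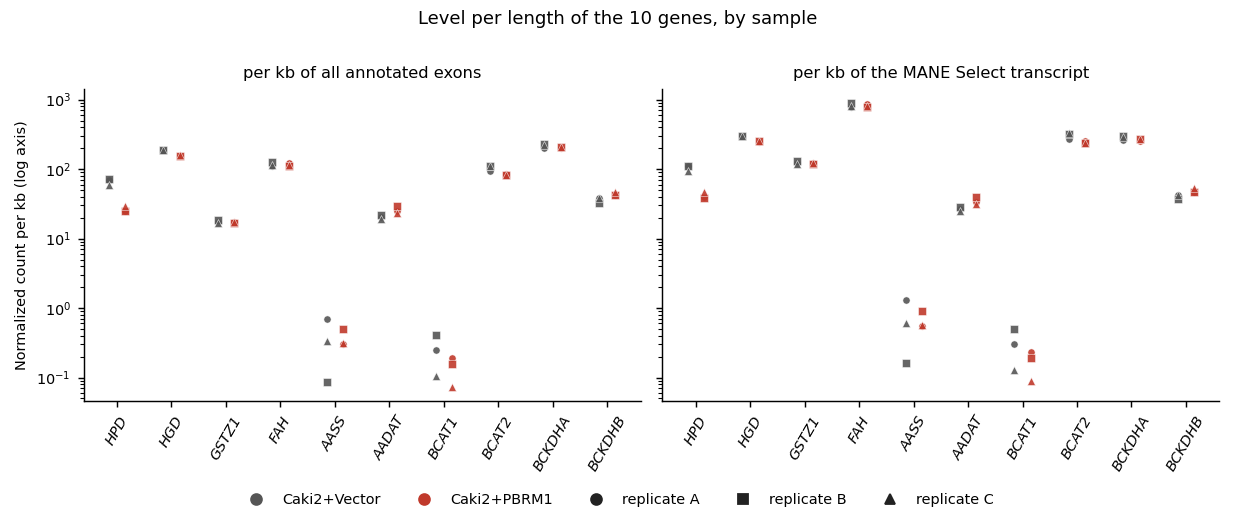
Normalized count per kb (log axis) of the 10 genes in each sample, per length of all annotated exons (left) and of the MANE Select transcript (right), grey for Caki2+Vector and red for Caki2+PBRM1, with the marker shape giving the replicate. AASS and BCAT1 lie at or under 1.3 per kb in every sample, and FAH moves from 119 to 828 per kb in Caki2+Vector between the lengths.

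Ratios within a sample do not depend on the scaling between samples. HPD per kb was 0.372, 0.382 and 0.318 of HGD in Caki2+Vector and 0.163, 0.158 and 0.186 in Caki2+PBRM1. Relative to FAH it went from 0.564 ± 0.055 to 0.227 ± 0.025 (SD, n = 3). Both ratios of HPD, to HGD and to FAH, were lower in every Caki2+PBRM1 sample than in any Caki2+Vector sample. The ratio of BCKDHA to BCKDHB was 5.28, 6.99 and 5.84 in Caki2+Vector and 4.66, 4.92 and 4.36 in Caki2+PBRM1, with no overlap. The ratio of BCAT2 to BCKDHA went from 0.486 ± 0.018 to 0.408 ± 0.019 (SD, n = 3). All ratios given here use the length of all annotated exons, and their size depends on that choice. By the MANE Select length the means per kb in Caki2+Vector were 309 for BCAT2 and 282 for BCKDHA, and 105 for HPD and 828 for FAH. A gene has the same length in both groups, so the direction of a difference in ratio does not depend on it. These ratios come from the same values as the fold changes above and add no independent evidence.

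The other genes of the 4 breakdown pathways were 50, of which 44 entered the fit, and 10 were called higher, 10 lower and 24 neither, with a median log2 fold change of -0.08. The groups did not overlap for 9 that were higher and 13 that were lower, beside 22.1% higher and 19.6% lower over all tested genes. The 10 of 44 called in each direction stand beside 16.2% higher and 13.0% lower over all tested genes. The same shares apply to the counts per pathway below, and no difference from any of these shares was tested. Adjusted p-values in the following are from limma over all 13303 genes. The lists of these pathways were chosen with earlier results of these data known, so the p-values describe the genes and are no independent support.

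Just upstream of HPD, the transcript of TAT, the tyrosine aminotransferase that makes its substrate, was scarcely present, with 1 read in all, in Caki2+Vector A. HPDL, a paralog of HPD, was between 5.7 and 8.5 in all samples and under the filter. The cofactor recycling gene PCBD1 fell by 0.19 on the log2 scale (SE 0.06, adjusted p = 0.0093 in limma), a call lost without Caki2+PBRM1 B (-0.16) or C (-0.17). Of the 5 others in this pathway only PCBD1 and QDPR were tested, and neither rose.

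Among the 15 other lysine genes 14 were tested, 3 rose and 3 fell, with a median log2 fold change of -0.05. CRYM, the ketimine reductase also known as mu-crystallin, rose from 32.1 ± 5.7 to 59.9 ± 6.0 (SD, n = 3), by 0.89 on the log2 scale (SE 0.18, adjusted p = 0.000325 in limma). ACAT1, the mitochondrial thiolase that the lysine and isoleucine routes share, fell from 691 ± 28.8 to 471 ± 5.6 (SD, n = 3), a difference of -0.55 on the log2 scale (SE 0.06, adjusted p = 1.23e-08 in limma). ETFB, a subunit of the electron transfer flavoprotein, fell by 0.24 (SE 0.05, adjusted p = 0.000593 in limma). These 3 genes were called without any single replicate. DHTKD1, which acts just after AADAT, fell by 0.20, lost without B or C of either group (-0.19 to -0.17). DLD rose by 0.15, lost without Caki2+Vector B or any Caki2+PBRM1 replicate (0.11 to 0.15), and ECHS1 by 0.13, lost without Caki2+Vector C or any Caki2+PBRM1 replicate (0.11 to 0.16). The calls of DHTKD1, DLD and ECHS1 were also lost with DESeq2, those of DLD and ECHS1 with quantile normalization, and that of ECHS1 with no filter. ALDH7A1, which acts between AASS and AADAT, had a log2 fold change of -0.04 (SE 0.09) and was not called.

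All 22 other branched-chain genes were tested, 4 rose and 6 fell, with a median log2 fold change of -0.14. Of these, DLD and ECHS1, which rose, and ACAT1, which fell, were also counted among the lysine genes above. MCCC2, a subunit of the leucine pathway carboxylase, fell from 777, 817 and 797 to 631, 647 and 632, a difference of -0.32 on the log2 scale (SE 0.05, adjusted p = 2.29e-05 in limma). With ACAT1 it was called without any single replicate. HIBCH of the valine route fell by 0.35 (SE 0.10, adjusted p = 0.0098 in limma), lost without Caki2+Vector A (-0.23) or Caki2+PBRM1 C (-0.28). MCCC1, the partner of MCCC2, passed the threshold at -0.28, lost without any replicate other than Caki2+Vector C (-0.30 to -0.24). OXCT1 of ketone use passed at 0.28 with overlapping groups, lost without B or C of Caki2+Vector or A or B of Caki2+PBRM1 (0.22 to 0.29). MCEE of the propionate steps passed at 0.41, lost without Caki2+Vector C or any Caki2+PBRM1 replicate (0.25 to 0.46). The calls of MCCC1, OXCT1 and MCEE were also lost with DESeq2, those of MCCC1 and MCEE with no filter, and that of MCEE with voom, edgeR and quantile normalization. Of the partners in the BCKDHA and BCKDHB complex, the E3 subunit DLD was called higher (0.15), with the losses given above. Its E2 subunit DBT (-0.15, SE 0.09), inhibitory kinase BCKDK (0.10, SE 0.05) and phosphatase PPM1K (-0.27, SE 0.14) were not called. DBT reached the threshold, at -0.24, only where Caki2+Vector B was left out. HSD17B10 (-0.17) and HIBADH (-0.15), named after their values were seen, also fell, and the groups of HIBADH overlapped. With DESeq2 neither was called, nor HSD17B10 with no filter. The call of HSD17B10 was lost without B or C of Caki2+Vector or A or B of Caki2+PBRM1 (-0.17 to -0.13), and that of HIBADH without A or C of either group (-0.15 to -0.10).

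**Figure D3:**
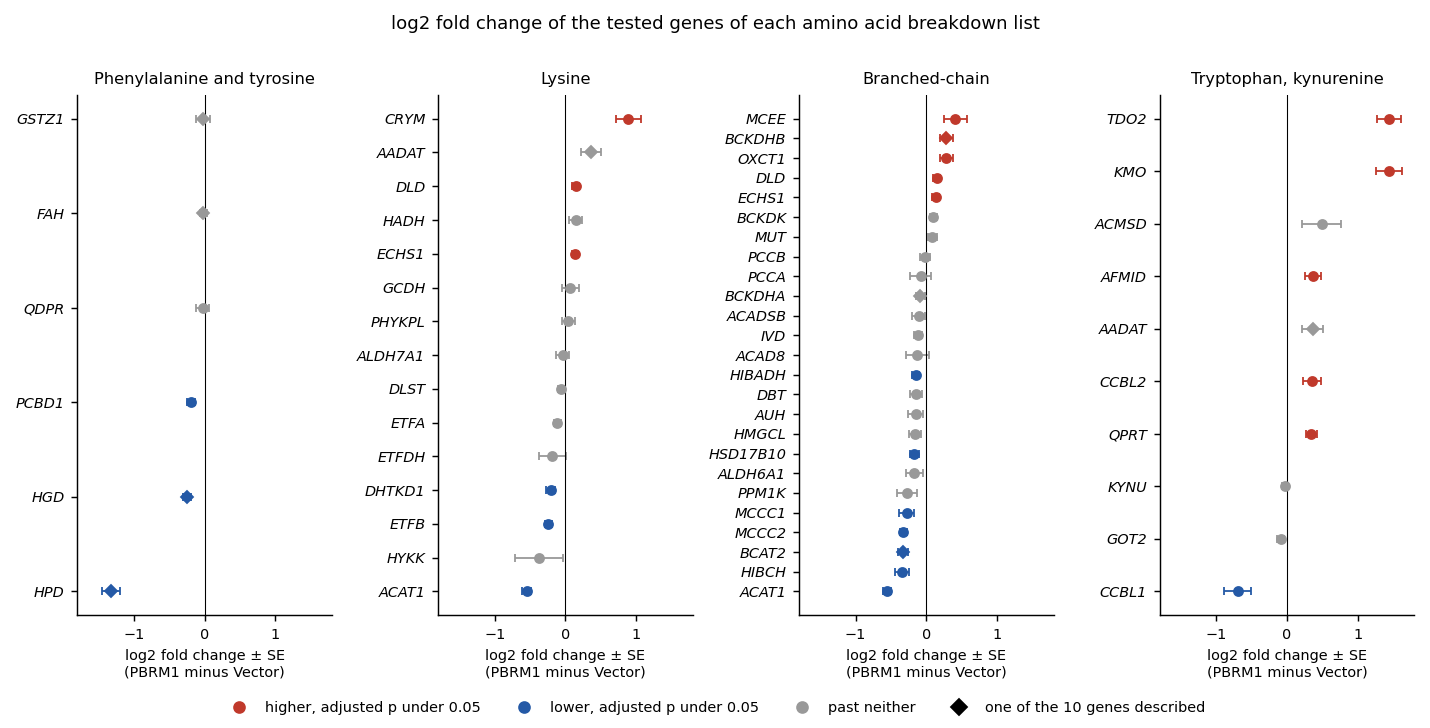
Log2 fold change (x axis, PBRM1 minus Vector, bars for the SE, 3 samples a group) of every tested gene of the 4 pathways, with diamonds for the genes described above and circles for the others, red or blue where the adjusted p was under 0.05 and grey elsewhere. HPD at -1.32 lies farthest to the left, and TDO2 and KMO at 1.44 farthest to the right, while most genes lie between -0.6 and 0.6.

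AADAT links these genes to the kynurenine pathway, which breaks down tryptophan. Of its 11 other genes 9 were tested, 5 rose and 1 fell, with a median log2 fold change of 0.36. TDO2, which opens the ring of tryptophan, was at 36.9, 33.1 and 27.6 in Caki2+Vector and at 76.9, 104.0 and 89.8 in Caki2+PBRM1. Its groups were far apart, and it rose by 1.44 on the log2 scale (SE 0.17, adjusted p = 6.25e-08 in limma). KMO, which hydroxylates kynurenine, was at 26.5, 23.6 and 19.2 in Caki2+Vector and at 61.7, 63.1 and 67.1 in Caki2+PBRM1. KMO rose by 1.44 as well (SE 0.19, adjusted p = 4.6e-07 in limma), and both calls held without any single replicate.

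CCBL1 and CCBL2, aminotransferases that share the kynurenine step with AADAT, differed in direction. GOT2, another aminotransferase of this list, had a far higher count, 1049 ± 3.2 (SD, n = 3) in Caki2+Vector. It was lower in Caki2+PBRM1 without overlap but was not called (-0.09, SE 0.05). CCBL1 fell from 63.0 ± 6.8 to 39.2 ± 10.7 (SD, n = 3), a difference of -0.70 on the log2 scale (SE 0.19, adjusted p = 0.0048 in limma), lost without Caki2+PBRM1 C (-0.47). CCBL2 rose from 78.1 ± 3.6 to 101 ± 10.5 (SD, n = 3), by 0.36 on the log2 scale (SE 0.13, adjusted p = 0.0343 in limma), lost without A or C of Caki2+Vector or A or B of Caki2+PBRM1 (0.27 to 0.39). With DESeq2 the calls of CCBL2 and AFMID were lost. AADAT, at 0.36, had a fold change of the same size as CCBL2 but was not called. AFMID (0.37) rose too, with overlapping groups and a call lost without Caki2+Vector C, Caki2+PBRM1 B or Caki2+PBRM1 C (0.31 to 0.33). QPRT, named after its values were seen, rose by 0.34 (SE 0.08, adjusted p = 0.00174 in limma) and was called without any single replicate. KYNU, the most abundant of them at 2140 ± 161 (SD, n = 3) in Caki2+Vector, was not called (-0.03, SE 0.05). IDO1 and HAAO had 7 and 1 reads over all samples.

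**Figure D4:**
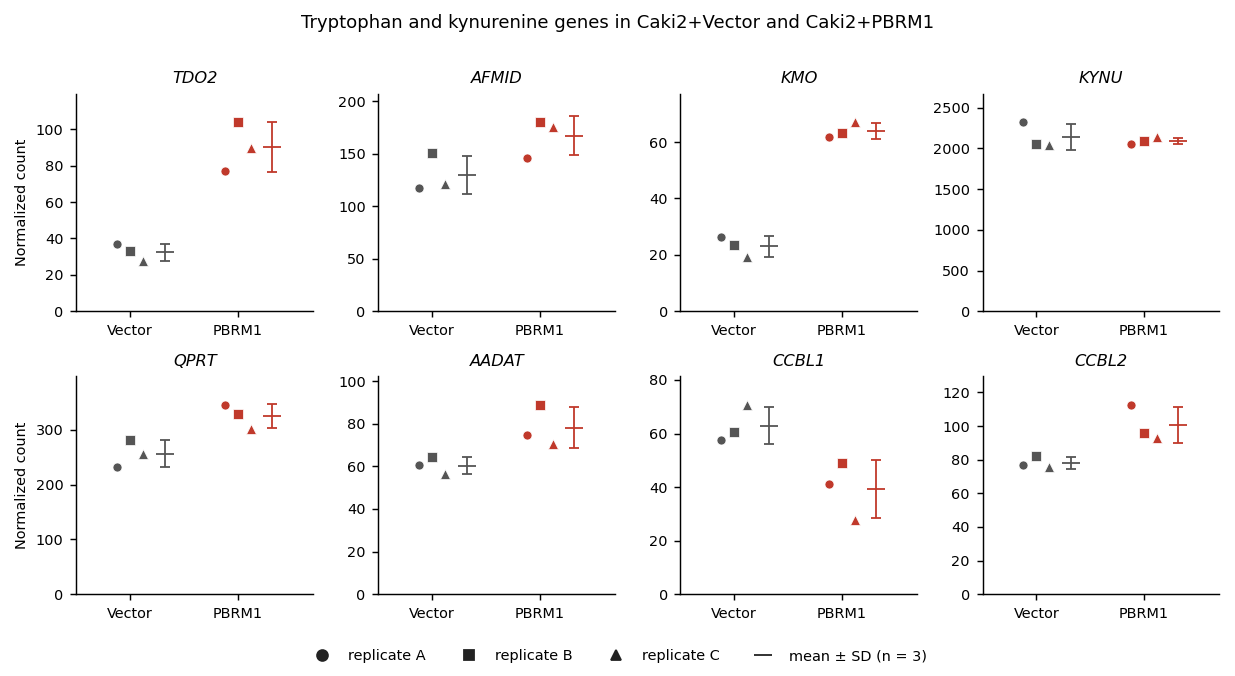
Normalized count (y axis, from 0, a scale of its own in each panel) of AADAT and 7 other kynurenine pathway genes in each sample, grey for Caki2+Vector and red for Caki2+PBRM1, with the mean ± SD (n = 3). TDO2 and KMO separate the groups widely, and AADAT (not called), CCBL2 and QPRT are higher in Caki2+PBRM1 by smaller steps. CCBL1 is lower, and AFMID and KYNU overlap.

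The 5 genes whose values over the 6 samples were most like those of HPD were ARID3B, GDPD1, SLC7A7, TRIM31 and DLGAP1-AS2. Likeness was the Euclidean distance between mean-centred log2(normalized count + 1) values, which was 0.32 for ARID3B, 0.38 for GDPD1, 0.39 for SLC7A7, 0.39 for TRIM31 and 0.40 for DLGAP1-AS2, against a median of 1.66 over all tested genes. ARID3B, a DNA-binding protein, ranged from 53.0 to 60.5 without and from 20.4 to 28.5 with PBRM1. SLC7A7, a light chain of the cationic amino acid transporter y+L, was between 89.8 and 97.1 in Caki2+Vector and between 28.4 and 36.1 in Caki2+PBRM1. As with HPD, the groups of all 5 genes did not overlap, which follows from how they were picked.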

How the data were processed

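RNA-Seq of 3 Caki2+Vector and 3 Caki2+PBRM1 samples was analysed, with groups and replicate letters from the sample labels. The authors removed adapters, poor reads and rRNA reads, aligned with STAR to hg19, counted reads on genes of the UCSC annotation with htseq-count, and normalized with DESeq2 (versions and strand setting are not given in the sources used here). The deposited values are a signal, read counts divided by a size factor per sample and not by length. Whole reads were recovered from the steps between values (100% of values within 0.1 of a whole read). Depth, 7312955 to 10835355 reads on genes, gave a median SE of 0.083 for a log2 fold change, and it covers counting error and replicate spread only.

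Genes reaching a normalized count of 10 in at least 3 of the 6 samples were tested as log2(normalized count + 1) with limma 3.58.1 (trend, robust) in R 4.3.3 and Benjamini-Hochberg adjustment, a script also tested on simulated data. Fold changes on this scale understate those of low genes. The 10 genes and the lists were chosen with earlier results of these data known, and the promoter motifs after seeing them. Named were all 10 genes; the called genes of each pathway, at most the 4 of largest fold change per direction; TAT, DBT, BCKDK, PPM1K, DHTKD1, ALDH7A1 and KYNU; and the 5 genes nearest to HPD. Gene positions and lengths are from GENCODE v44 lifted to GRCh37, the build of hg19. Alternatives were voom, edgeR 4.0.16 (quasi-likelihood) and DESeq2 1.42.0 on recovered reads, TMM and quantile scaling, 2 filters, pseudocounts of 0.5 and 4, a replicate block, an adjusted p under 0.01 and leaving out each replicate. The MANE Select length was added after seeing the data. Python 3.11.15 drew the figures. Sequencing batches are not named in the labels, so no values within batches were computed. The values of 1 gene of the tyrosine list are not reported here.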

Additional observations from a re-analysis of the deposited data

How the results depend on the processing

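Over the 17 alternatives the log2 fold change was -1.40 to -1.27 for HPD, -0.26 to -0.24 for HGD, -0.42 to -0.29 for BCAT2, 0.22 to 0.32 for BCKDHB and 0.26 to 0.43 for AADAT, a description, since the genes were selected on this comparison. BCKDHB also missed the threshold with DESeq2 (0.29) and at an adjusted p under 0.01. The 10 genes gave 3 to 4 calls under every alternative, single replicates left out included. Small differences took either sign when single replicates were left out, from -0.0588 to 0.0375 (FAH, above 0 without Caki2+Vector B or, at 0.0091, Caki2+PBRM1 B), from -0.0392 to 0.0157 (GSTZ1, likewise, 0.0033), from -0.1101 to 0.0457 (ALDH7A1, above 0 without Caki2+Vector A, 0.018, or Caki2+PBRM1 C) and from -0.0629 to 0.0317 (KYNU, above 0 without Caki2+Vector A). Calls over all genes went from 3886 to 2553 with DESeq2 and 2521 at an adjusted p under 0.01, and to between 2798 and 4154 without single replicates. The 20 calls among the other pathway genes went to 10 with DESeq2 and 10 at an adjusted p under 0.01, and to between 10 and 16 without single replicates. The cause was not tested, beyond fewer samples and a stricter threshold. The order of levels per length in Caki2+Vector was shared by 37 of 45 gene pairs under the MANE Select length and by 44 to 45 without single Caki2+Vector replicates. The labels do not say whether the replicate letters pair the samples. Deviations from the group means correlated at -0.0077 to 0.0138 for shared letters and at -0.0243 to 0.0173 for different ones. These values are across genes that are not independent replicates, with 3 samples a group, and cannot settle whether samples were paired. With the replicate block, 4107 genes were called over all, 21 of the other pathway genes and 4 of the 10 genes. Depth limits AASS and BCAT1, at no more than 8 reads a sample. With 3 replicates a group, p-values measure the spread between these cultures of 1 line.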
